A study of Mus musculus with 4 samples.

Results

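The clock output genes described here are 10 transcripts known to follow the circadian clock. They are Dbp, Tef, Hlf, Bhlhe40, Bhlhe41, Wee1, Tspan4, Klf13, Lonrf3 and Coq10b. They were chosen by gene symbol, and each of the 10 matched exactly 1 row of the array among the 19934 genes tested. Expression was measured in whole kidney of C57BL6/N males, 12 weeks old, that lacked Usp2 (Usp2-KO) or were wild-type (WT). Usp2 encodes a ubiquitin-specific protease. All mice had been kept for 3 weeks in 12 h of light and 12 h of darkness and were killed at Zeitgeber time 12, which on this scale is lights-off and, per the labels, the daily peak of Usp2. Each genotype was represented by 2 pools of kidney RNA from 3 mice, drawn from 6 pairs of littermates, and a Usp2-KO pool and the WT pool of the same number come from the same litters. The labels do not say which part of Usp2 was removed or in which cells, and a whole-kidney pool mixes all cell types and averages over its mice. All kidneys were taken at a single time of day, so amplitude and phase of the daily rhythms cannot be read from these values.

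The mammalian clock is a loop in which CLOCK and BMAL1 (encoded by Arntl) bind E-box elements and switch on Per, Cry and Nr1d genes, whose products act back on them. Output genes carry this rhythm to other functions of the cell. Dbp, Tef and Hlf encode the PAR bZIP transcription factors, which bind D-box elements and, in kidney and liver, regulate genes of detoxification. Bhlhe40 and Bhlhe41 (also called Dec1 and Dec2) encode repressors that bind E-boxes. Wee1 encodes a kinase that holds back entry into mitosis.

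Promoter sequence is described first, because the E-box (CACGTG, a palindrome that reads the same on both strands) is the element through which CLOCK and BMAL1 act. In RefSeq promoters (GRCm38.p6), 8 of the 10 genes had a window of 250 bases before an annotated start, with 10 windows in all. An E-box lay in 6 of these 10 windows, against 6.02% of the 32851 windows of all genes. The 6 windows belonged to 5 genes (Tef with 2 windows, Bhlhe41, Tspan4, Lonrf3 and Coq10b). The genes were picked as outputs of a clock that acts through this element, so the comparison is a description and not a test. The D-box (TTANGTAA, both strands) lay in 1 window, that of Coq10b, against 2.06% of all windows. The ROR element (TAGGTCA, both strands) lay in none, against 2.23%. Dbp, Hlf and Klf13 had none of the 3 motifs in this window, and Bhlhe40 and Wee1 had no window. The following stretches of genomic sequence, 5′ to 3′ on the + strand of GRCm38.p6, carry the matched motif in capitals. Tspan4 and Lonrf3 are shown because they share the element and stood in opposite order across the 4 pools. Tef is shown as the PAR bZIP gene with a match, and Coq10b because it holds both motifs and had the smallest p of the 10.
Tspan4 E-box, chr7:141476302-141476361, with 45 bases between match and start: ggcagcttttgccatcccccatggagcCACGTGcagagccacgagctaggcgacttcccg
Lonrf3 E-box, chrX:36328337-36328396, with 39 bases between match and start: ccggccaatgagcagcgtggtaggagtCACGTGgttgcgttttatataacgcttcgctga
Tef E-box, chr15:81802519-81802578, with 121 bases between match and start: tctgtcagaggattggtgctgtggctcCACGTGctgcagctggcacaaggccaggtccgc
Coq10b E-box, chr1:55052665-55052724, with 72 bases between match and start: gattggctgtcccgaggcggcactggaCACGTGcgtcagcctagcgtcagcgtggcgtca
Coq10b D-box on the opposite strand, chr1:55052581-55052642, with 154 bases between match and start: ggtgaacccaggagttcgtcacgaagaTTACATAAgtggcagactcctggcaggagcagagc
A match describes these letters and does not show that a factor binds there.

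The 4 arrays were alike as a whole, with medians between 7.44 and 7.46 on the log2 scale and correlations between 0.997 and 0.998 across genes. Usp2 matched the labels, with log2 values of 11.63 and 11.71 in the WT pools and 7.65 and 7.60 in the Usp2-KO pools, 16.5-fold lower (limma adjusted p = 2.8e-08). All 9 tubule markers of kidney (among them Lrp2, Umod and Aqp2) were above the median signal of all genes. Their mean log2 level was 12.44 and 12.41 in the WT pools and 12.51 and 12.48 in the Usp2-KO pools, with 5 of 9 higher. Of 4 measured markers of glomerulus and vessel, 2 were higher and 2 lower. Markers of tissues that lie next to the kidney, or of blood, had mean log2 levels from 5.83 for adrenal gland in Usp2-KO pool 2 to 7.89 for blood and immune cells in WT pool 2. All 6 adrenal, 4 pancreatic, 4 urothelial and 4 skeletal muscle markers were lower in Usp2-KO kidney, with medians of -0.06, -0.18, -0.11 and -0.07, and 2 of 3 blood and immune markers were lower (median -0.06). Over all genes, 47.5% were higher. Most of these markers were weak. Above the median signal were 0 of 6 adrenal and 0 of 4 pancreatic markers. The same held for 1 of 4 urothelial, 1 of 4 skeletal muscle and 2 of 3 blood and immune markers. The mean of 5 adipocyte markers was 7.04 and 7.13 in the WT pools and 6.81 and 7.16 in the Usp2-KO pools, with 2 higher (Ucp1 by 0.21 and Fabp4 by 0.12) and 3 lower (Adipoq by -0.47, Plin1 by -0.34 and Lep by -0.02). No marker passed limma's adjusted threshold without the littermate block. With the block, the tubule marker Calb1 (higher by 0.44, adjusted p = 0.00391) and Adipoq (-0.83 and -0.12 in the littermate comparisons, adjusted p = 0.00378) passed. The block fit draws its variance almost wholly from a prior shared by all genes (90.6 degrees of freedom). Its p-values therefore hardly weigh how far a gene's own littermate comparisons lie apart. The part of these marker shifts in the results that follow was not tested.

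None of the 10 clock output genes differed between the genotypes past an adjusted p of 0.05. In limma's comparison of 2 Usp2-KO with 2 WT pools, 0 of 10 passed (0.00502% of all genes did, which is Usp2 alone), and 0 of 10 passed with littermates entered as a block, where 0.768% of all genes did. At an unadjusted p under 0.05 there was 1 of 10, Coq10b, against 9.11% of all genes, and the 1 gene was higher (5.22% of all genes were higher at that level). In Usp2-KO kidney 6 of the 10 were higher (47.5% of all genes were) and 4 lower, with a median difference of 0.03 on the log2 scale, against -0.01 over all genes. The differences lay between -0.11 for Tspan4 and 0.19 for Coq10b. The 95% confidence intervals of all 10 lay between -0.31 and 0.37, or between 0.809-fold and 1.29-fold of the WT level, each interval taken on its own. The p-values and intervals rest on the spread between pools, not between single mice. Most of their degrees of freedom (6.87 of 8.87) come from limma's prior, which is shared by all genes. That prior raises the SE of steady genes and lowers the SE of variable ones. With 2 pools a genotype, an exact permutation test (two-sided) could not go below a p of 0.333.

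**Figure D1:**
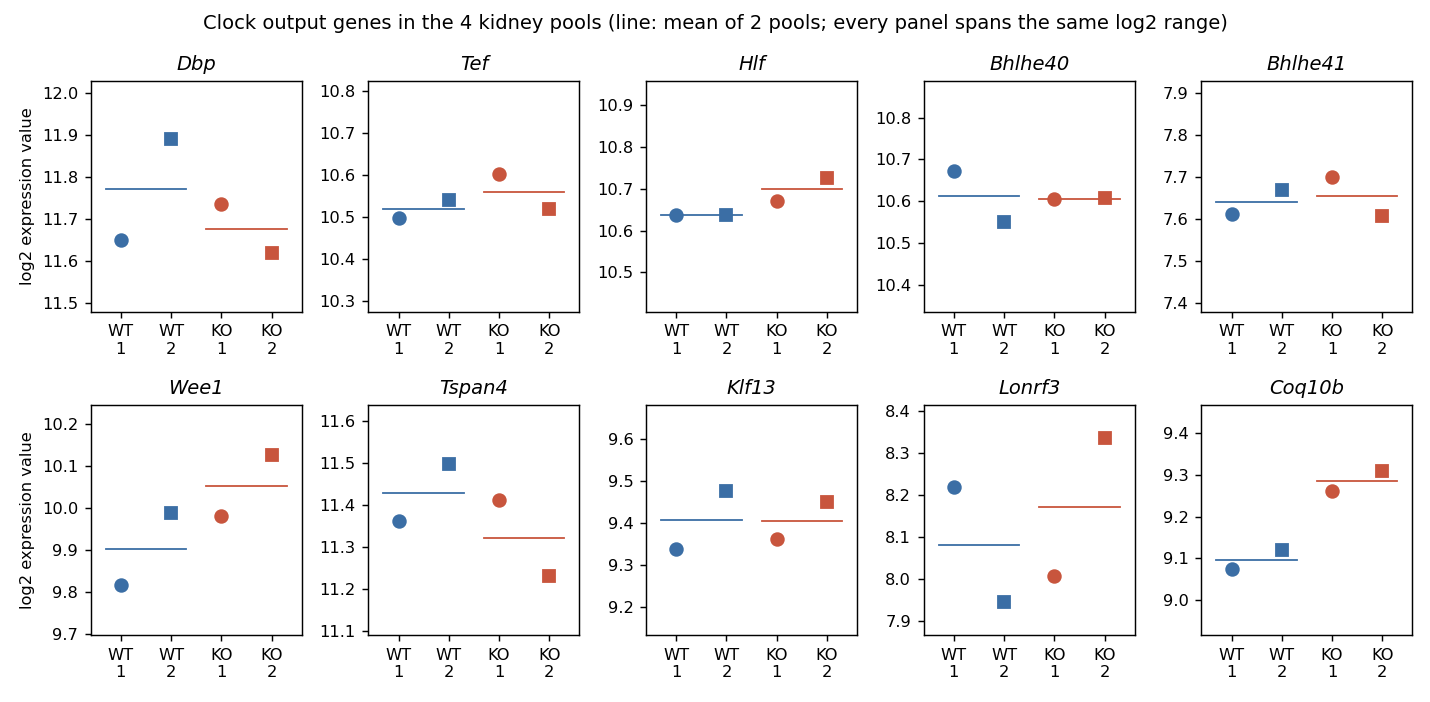
Log2 expression value (vertical axis) of each clock output gene in the 2 WT pools (blue) and the 2 Usp2-KO pools (red), with circles for pool 1, squares for pool 2 and a line at each group's mean of 2 pools. Every panel spans the same log2 range. In the panels of Hlf and Coq10b both Usp2-KO pools lie above both WT pools, and in the other 8 panels the groups overlap.

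Dbp, the PAR bZIP factor gene with the best known daily rhythm, had log2 values of 11.65 and 11.89 in the WT pools and 11.74 and 11.62 in the Usp2-KO pools. Its highest and its lowest pool belonged to different genotypes, and the groups overlapped. The difference was -0.09 (SE 0.09, 95% confidence interval -0.31 to 0.12, limma adjusted p = 0.824). The littermate comparisons had opposite signs, 0.09 for pool 1 and -0.27 for pool 2. Without WT pool 2, the highest of the 4, the difference was 0.03.

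Tef, which encodes thyrotroph embryonic factor, had log2 values of 10.50 and 10.54 in the WT pools and 10.60 and 10.52 in the Usp2-KO pools. One Usp2-KO pool lay above both WT pools and the other between them, so the groups overlapped. The difference was 0.04 (SE 0.07, interval -0.12 to 0.21), and the littermates differed by 0.11 and -0.02.

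Hlf, which encodes hepatic leukemia factor, was among the steadiest of the 10 genes. Both WT pools were at 10.64, and the Usp2-KO pools were at 10.67 and 10.73. The groups did not overlap, with both Usp2-KO pools higher, a pattern that 19.8% of all genes showed. The difference of 0.06 (SE 0.07, interval -0.10 to 0.22, limma adjusted p = 0.853) did not pass. Its pools spread less than those of most genes, with a residual SD of 0.03 at percentile 11.6 of all genes, and limma's shared prior raises the SE of such a gene. The 3 PAR bZIP genes therefore showed differences of -0.09, 0.04 and 0.06, of which none passed.

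The genes that PAR bZIP factors are known to act on were read beside them. Of 9 listed, 6 were measured on a row with 1 symbol, and 0 of 6 passed over all genes in either direction (1 of 6 at an unadjusted p under 0.05), with 3 higher and 3 lower and a median of 0.0045. Alas1, the first enzyme of heme synthesis, differed by -0.01, and Pdxk, pyridoxal kinase, by 0.02. Nr1i3, the receptor CAR, differed by 0.02, and the lipid regulator gene Ppara by -0.06. Cyp2b10, a cytochrome P450 of drug metabolism, had log2 values of 7.20 and 6.85 in the WT pools and 7.45 and 7.78 in the Usp2-KO pools. Both Usp2-KO pools were higher, by 0.59 (SE 0.13, limma adjusted p = 0.286), and with the littermate block the adjusted p was 0.000106. The littermate comparisons of Cyp2b10 were unequal, 0.25 and 0.93, a spread that the p-value of the block fit hardly weighs. Cyp2c29, another cytochrome P450, differed by -0.06, with values of 4.73 to 4.94 in the 4 pools.

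The E-box repressor genes differed little between the genotypes. Bhlhe40 had log2 values of 10.67 and 10.55 in the WT pools and 10.61 and 10.61 in the Usp2-KO pools. Both Usp2-KO pools lay between the WT pools, and the difference was -0.006 (SE 0.075, interval -0.18 to 0.16). Bhlhe41 had values of 7.61 and 7.67 in the WT pools and 7.70 and 7.61 in the Usp2-KO pools. Here the WT pools lay between the Usp2-KO pools, and the difference was 0.01 (SE 0.07, interval -0.16 to 0.18). For both genes the littermate comparisons had opposite signs, -0.07 and 0.05 for Bhlhe40 and 0.09 and -0.06 for Bhlhe41. Bhlhe41 was the 1 member below the median signal of all genes, and all 10 had a mean log2 value of at least 6.

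Wee1 had log2 values of 9.82 and 9.99 in the WT pools and 9.98 and 10.13 in the Usp2-KO pools. In both littermate comparisons the Usp2-KO pool was the higher, by 0.16 and 0.14, yet the groups overlapped, because pool 2 was above pool 1 in both genotypes (by 0.17 in WT and 0.15 in Usp2-KO). The difference of 0.15 (SE 0.09, interval -0.05 to 0.35) did not pass, with a limma adjusted p of 0.648, and of 0.71 with the littermate block. Of the genes that act with Wee1 at entry into mitosis, 7 of 8 were measured, with 1 higher and 6 lower, a median of -0.06 and 0 of 7 past the threshold in either direction (0 of 7 also at an unadjusted p under 0.05). Cdc25c, Pkmyt1, Cdc25b and Cdk1 (4 of 7, against 19.1% of all genes) were lower in both Usp2-KO pools than in either WT pool. Only 2 of the 7 measured genes were above the median signal of all genes. Ccnb2, a B-type cyclin, differed by -0.10, Cdc25c, a phosphatase that opposes Wee1, by -0.08, and Pkmyt1, a related kinase, by -0.06. Cdk1, the kinase that Wee1 inhibits, differed by -0.04.

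Coq10b, which encodes a mitochondrial protein that binds coenzyme Q, had log2 values of 9.07 and 9.12 in the WT pools and 9.26 and 9.31 in the Usp2-KO pools. It was higher in both Usp2-KO pools than in either WT pool, and the littermate comparisons were nearly equal, 0.188 and 0.189. The difference was 0.19 (SE 0.07, interval 0.03 to 0.35), or 1.14-fold. Its unadjusted limma p was 0.0267 and its adjusted p 0.47, so it did not pass, and with the littermate block the adjusted p was 0.522. Its difference was larger than that of 91% of all genes. With each pool left out in turn the difference stayed between 0.17 and 0.21. With quantile normalization repeated it was 0.16, and its unadjusted limma p of 0.0509 was no longer under 0.05.

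Other genes of coenzyme Q did not share one direction. Of 11 measured, 5 were higher and 6 lower, with a median of -0.02 and 0 of 11 past the threshold in either direction (1 of 11 at an unadjusted p under 0.05). Coq5, a methyltransferase of the pathway, differed by 0.17 (SE 0.07) and Coq3, another methyltransferase, by 0.16 (SE 0.07). Coq10a, the paralogue of Coq10b, had log2 values of 11.18 and 11.18 in the WT pools and 11.10 and 11.07 in the Usp2-KO pools. Both Usp2-KO pools of Coq10a were lower, by -0.10 (SE 0.07, limma adjusted p = 0.721), a pattern that 19.1% of all genes showed. Coq6, a monooxygenase, differed by -0.09.

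Tspan4, which encodes a tetraspanin membrane protein, had log2 values of 11.36 and 11.50 in the WT pools and 11.41 and 11.23 in the Usp2-KO pools. The groups overlapped, and the difference was -0.11 (SE 0.09, interval -0.31 to 0.09, limma adjusted p = 0.76). The littermates differed by 0.05 and -0.27, close to the values of Dbp (0.09 and -0.27). Without Usp2-KO pool 2 the difference of Tspan4 was -0.02.

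Klf13, a Krüppel-like transcription factor gene, had log2 values of 9.34 and 9.48 in the WT pools and 9.36 and 9.45 in the Usp2-KO pools. Both Usp2-KO pools lay between the WT pools, and the difference was -0.0015 (SE 0.08, interval -0.18 to 0.18).

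Lonrf3, which encodes a RING finger protein with a LON domain, varied most between pools of one genotype. Its log2 values were 8.22 and 7.95 in the WT pools and 8.01 and 8.34 in the Usp2-KO pools. The groups overlapped, and the difference was 0.09 (SE 0.12, interval -0.19 to 0.37). The littermate comparisons were -0.21 and 0.39. Its residual SD of 0.21 was at percentile 98 of all genes, and Dbp's of 0.13 was at percentile 87.6. The median was 0.07 over the 10 genes and 0.07 over all genes. With 2 pools a genotype, an SE without limma's shared prior would equal the residual SD. The prior lowers it to 0.12 for Lonrf3 and 0.09 for Dbp, which narrows their intervals.

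**Figure D2:**
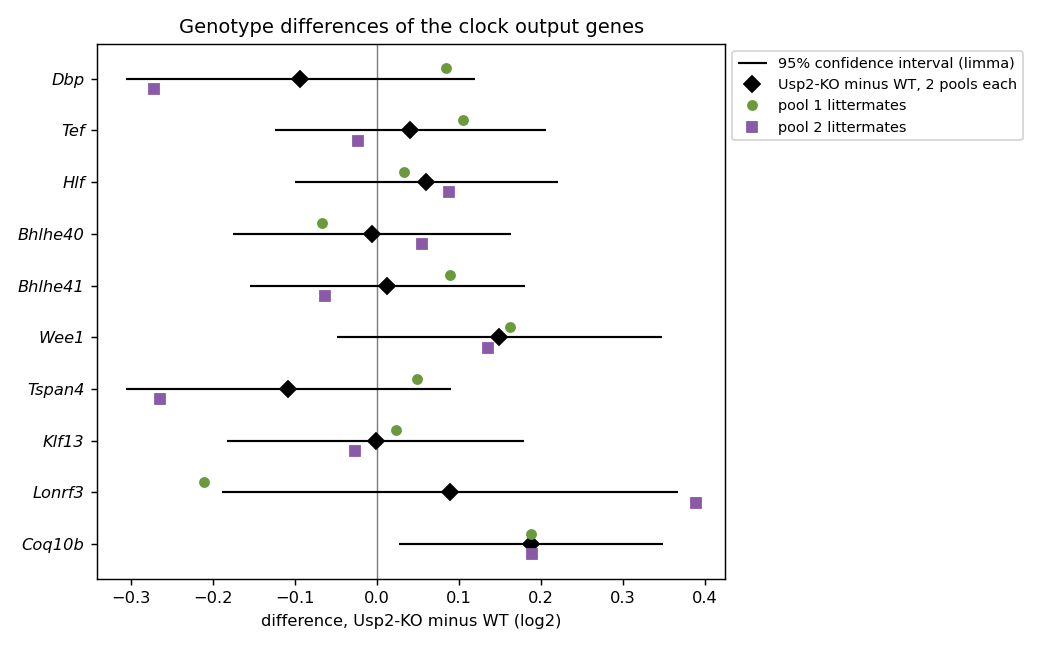
Difference between Usp2-KO and WT on the log2 scale (horizontal axis) for each clock output gene, with the limma estimate from 2 pools per genotype (diamond), its 95% confidence interval (line) and the littermate differences of pool 1 (circle) and pool 2 (square). The interval of Coq10b, 0.03 to 0.35, is the 1 of 10 that does not include 0, and 3 genes (Hlf, Wee1 and Coq10b) have both littermate differences on the same side of 0.

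The littermate comparisons had the same sign for 3 of the 10 genes (Hlf, Wee1 and Coq10b, all higher in Usp2-KO), against 51.5% of all genes for either sign and 26.1% for higher in both. For 8 of the 10 genes the pools of one genotype differed by more than the genotypes did, against 73.4% of all genes. The exceptions were Hlf and Coq10b, the genes whose groups did not overlap (2 of 10, both higher, against 38.9% of all genes in either direction).

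The WT pools differed from each other in several clock genes at once. Of the 10 output genes, 8 were higher in WT pool 2 than in WT pool 1 (53.4% of all genes were), and 6 were higher in Usp2-KO pool 2 than in Usp2-KO pool 1 (47.7% of all genes). WT pool 2 was above WT pool 1 by 0.24 for Dbp, which was a larger gap than that of 94% of all genes, by 0.13 for Tspan4, 0.17 for Wee1 and 0.14 for Klf13. Lonrf3 went the other way, with WT pool 2 lower by -0.27, a larger gap than that of 96.1% of all genes. Among core clock genes, 11 of 18 were higher in WT pool 2 than in WT pool 1, with 1 of 3 activator genes and 6 of 9 repressor genes, and 4 of 18 were higher in Usp2-KO pool 2 than in Usp2-KO pool 1. The gaps of the genes that follow were among the larger ones. WT pool 2 was higher for the repressor genes Ciart (0.40), Per1 (0.37) and Nr1d1 (0.29) and lower for the activator genes Arntl (-0.50) and Clock (-0.25) and for Nfil3 (-0.25), whose product competes with PAR bZIP factors for the D-box. Other members of these roles went the opposite way by less, with the activator gene Arntl2 at 0.10 and the repressor genes Cry1 at -0.09 and Per2 at -0.03. In the Usp2-KO pools the gap had the opposite sign for Dbp (-0.12), Tspan4 (-0.18), Ciart (-0.18), Per1 (-0.11), Nr1d1 (-0.17), Lonrf3 (0.33) and Clock (0.29), and the same sign for Wee1 (0.15), Klf13 (0.09), Arntl (-0.05) and Nfil3 (-0.10).

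Dbp, Tspan4, Nr1d1 and Cry2 shared one order of the 4 pools, with WT pool 2 highest, then Usp2-KO pool 1, WT pool 1 and Usp2-KO pool 2. This order was held by 7.01% of all genes, and by 2 of the 10 output genes. Lonrf3 had exactly the reverse order, as had 3.77% of all genes. These orders were looked at after the values were seen, and their cause was not tested. With 4 arrays, a shared order is a description of these pools. Of the 10 output genes, 3 had their highest value in WT pool 2 (Dbp, Tspan4 and Klf13), against 27.1% of all genes.

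**Figure D3:**
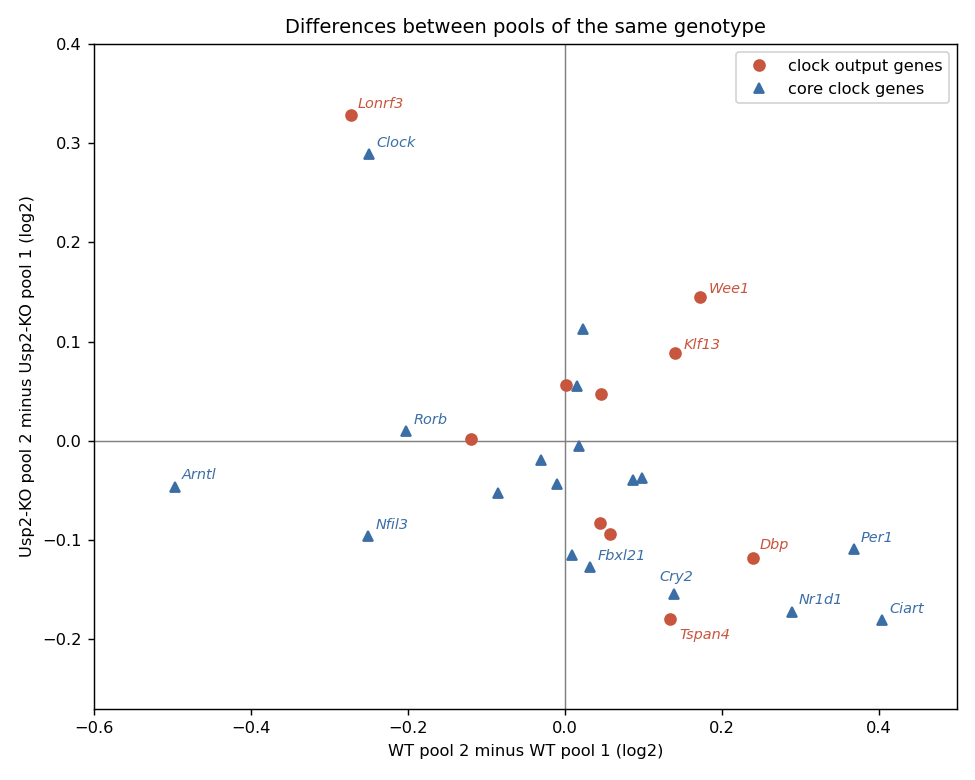
Each point is a gene, with the log2 difference of WT pool 2 from WT pool 1 on the horizontal axis and that of Usp2-KO pool 2 from Usp2-KO pool 1 on the vertical axis, for the 10 clock output genes (circles) and 18 core clock genes (triangles). Dbp and Tspan4 lie at the lower right beside Per1, Nr1d1, Ciart and Cry2, and Lonrf3 lies at the upper left beside Clock (-0.25 and 0.29).

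The core clock genes that drive these outputs were read by their roles, and 18 of 21 listed genes were measured. None passed over all genes in either direction by limma, with or without the littermate block, and 3 of 18 had an unadjusted p under 0.05 (9.11% of all genes did), all of them higher (5.22% of all genes). Clock differed by 0.30 (SE 0.11), Nfil3 by 0.30 (SE 0.09) and Rora, whose product activates Arntl, by 0.24 (SE 0.07). Their adjusted limma p-values were 0.475, 0.396 and 0.374. Of the 3 measured activator genes 1 was higher and 2 lower, and 1 of 3 was above the median signal of all genes. Arntl differed by -0.25 (SE 0.14), but its groups overlapped and its littermate comparisons were unequal, -0.48 and -0.03. Of the 9 repressor genes 3 were higher and 6 lower, with a median of -0.03. In that list Nr1d1 differed by -0.19, Per1 by -0.10, Cry2 by -0.07, Per2 by -0.03 and Cry1 by 0.03. Both measured ROR genes were higher, with Rorb at 0.08 (SE 0.08). The groups of Rorb overlapped, and its littermate comparisons had opposite signs, -0.03 and 0.18. Of 4 kinase and ligase adaptor genes 1 was higher and 3 lower, and Btrc, a ubiquitin ligase adaptor that acts on PER proteins, differed by 0.13.

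Clock, Nfil3, Rora and Btrc (4 of 18, against 19.8% of all genes) were higher in both Usp2-KO pools than in either WT pool, as were Hlf and Coq10b among the outputs. Per2 and Arntl2 (2 of 18, against 19.1%) were lower in both. The pools of Rora were at 9.03 and 9.05 in WT and at 9.25 and 9.31 in Usp2-KO kidney. Its littermate comparisons were 0.22 and 0.26, while those of Clock were 0.03 and 0.57.

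**Figure D4:**
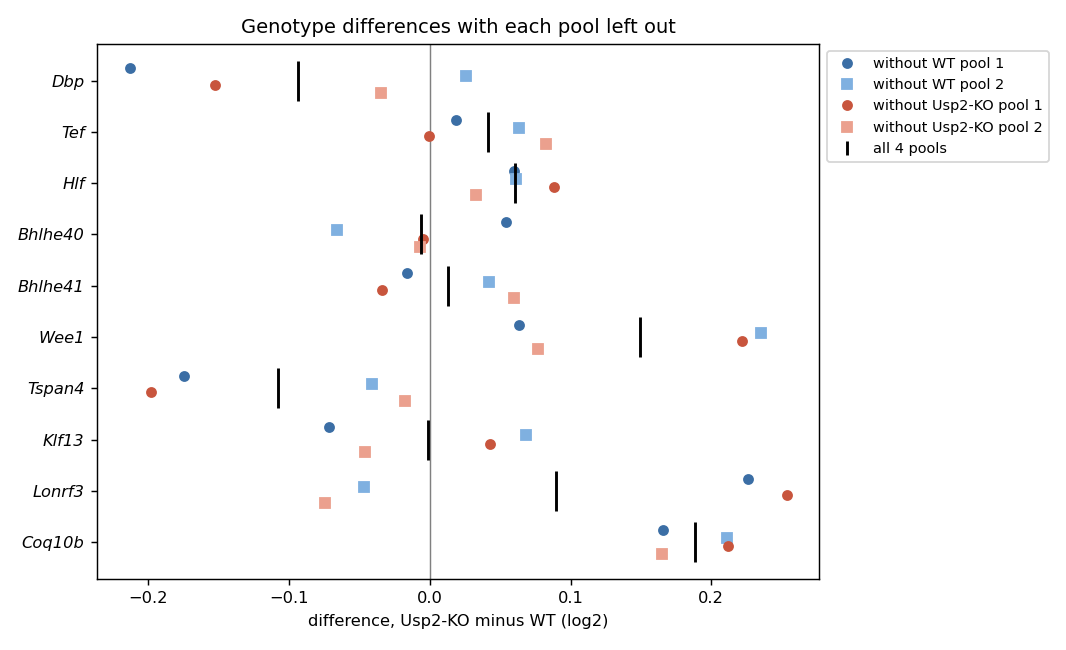
Difference between Usp2-KO and WT on the log2 scale (horizontal axis) for each clock output gene with all 4 pools (black bar) and with 1 pool left out (points). Values of Hlf, Wee1 and Coq10b stay above 0 and those of Tspan4 below 0 whichever pool is left out, while those of the other 6 genes take both signs.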

How the data were processed

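The deposited table holds log2 expression values that the authors made with RMA, per the submitters' processing notes; its software version and any removal of rows are not given in the sources used here. RMA corrects each array's background, equalises the distributions of all arrays and summarises probes, so a shift of all genes would be removed. Per the labels' protocols, 300 ng of pooled RNA was labelled for an Affymetrix whole-transcript array. Detection calls were not used here, and precision is limited by having 4 arrays.

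Of 28270 rows, 21780 had 1 gene symbol in the platform's annotation, 1617 had several and 4873 were not listed. The row of highest mean was used for each of 19934 genes. The genotype difference (Usp2-KO minus WT) came from limma 3.58.1 under R 4.3.3 (lmFit, eBayes, prior of 6.87 degrees of freedom), with Benjamini-Hochberg adjustment over all genes. With the littermate block the prior had 90.6 degrees of freedom. No signal filter was applied. The fit was tested on simulated data, with a pass mark set only for differences far larger than those of the clock output genes. This test therefore does not bear on differences as small as theirs. Confidence intervals are 95%. Figures were drawn with matplotlib 3.10.9.

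The series' design text keeps littermates in step between pools, which is where the pairing comes from. As a check, the deviations from the group means of pools with the same number correlated at -0.121 across genes. The value was not positive, so pools of the same number were not more alike than pools of different number. The pairing therefore rests on the design text alone. The littermate block was an alternative, beside an intensity trend, a robust prior, signal filters, other treatment of rows, repeated quantile normalization, median centring, a looser threshold and each pool left out. The members, gene lists and marker lists were chosen with earlier results of these data known. All 10 members are described, as are always Clock, Arntl, Per1, Per2, Cry1, Nr1d1 and Nfil3. In each other list at most 4 genes of smallest p were to be named. Further genes named (Ciart, Arntl2, Nr1i3, Alas1, Cdk1 and single tissue markers) were chosen after their values were seen.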

Additional observations from a re-analysis of the deposited data

How the results depend on the processing

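No clock output gene passed under any of the 15 alternatives run, whose counts of passing members were all 0. The count of all genes that passed, 1 with limma, was 153 with the littermate block, 18 with an intensity trend, 7 among genes above the median signal, 7 among genes with a mean log2 value of at least 6, 2 at an adjusted p under 0.10, and 1 to 2 with 1 pool left out (2 without WT pool 1 or without Usp2-KO pool 2). The littermate block changed no call of the 10 genes, while Cyp2b10 and the tissue markers Calb1 and Adipoq passed with it and not without it. Pairing the pools the crossed way, added after the data were seen, called 1 gene and 0 members. With median centring, Bhlhe40 turned to 0.0057 and Klf13 to 0.0103. With each pool left out in turn, the sign turned for 6 genes, whose ranges were -0.213 to 0.026 for Dbp, -5e-04 to 0.0825 for Tef, -0.066 to 0.054 for Bhlhe40, -0.034 to 0.06 for Bhlhe41, -0.0715 to 0.0685 for Klf13 and -0.0745 to 0.2535 for Lonrf3. In these fits the lone pool of a genotype is assumed to vary like the other genotype's pools. Hlf (0.03 to 0.09), Wee1 (0.06 to 0.24), Tspan4 (-0.20 to -0.02) and Coq10b (0.16 to 0.21) kept their sign under the alternatives run. Bhlhe41 was left out by the filter at the median signal. The cause of these changes was not tested.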
